A study of Homo sapiens with 2 samples.

Results

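The genes examined were the protein-coding genes of the integrin alpha and beta subunits and of the laminin alpha, beta and gamma chains, chosen by gene symbol, by a rule that uses no measured value but was set with earlier results of these data known. There were 38 such genes among the 44591 in the table, 26 integrin and 12 laminin genes. Their levels were measured by RNA-Seq of total RNA from HSC-1 cells, an established human line of cutaneous squamous cell carcinoma. The siNC group was HSC-1 transfected with a control siRNA and the siLINP1 group was HSC-1 transfected with siRNA against the long non-coding RNA LINP1. Both were transfected at about 70% confluency, held without serum for 6 h and kept for a further 24 h after serum was returned, per the labels. The study's methods give another confluency and time for its transfections. Each group was 1 library of 1 cell line, so a difference between them could not be set against the spread between cultures. No replicate check and no p-value were possible. The siNC library held 18829544 counted reads and the siLINP1 library 15383081. The target LINP1 (chr10:6779344-6780901, plus strand, GRCh37) had 167 reads in siNC and 23 in siLINP1, a log2 fold change of -2.65 with a 95% counting interval from -3.35 to -2.02.

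An integrin is a membrane receptor made of 1 alpha and 1 beta subunit that joins the extracellular matrix, or a ligand on another cell, to the actin or keratin cytoskeleton. The alpha subunit largely sets the ligand, such as collagen, laminin or proteins with the RGD motif, and the beta subunit carries the tail that binds the adaptor proteins inside the cell. A laminin is a trimer of 1 alpha, 1 beta and 1 gamma chain and is a main component of basement membranes. In skin, basal keratinocytes hold on to the laminin of the basement membrane through integrin alpha 6 beta 4 in hemidesmosomes and through integrin alpha 3 beta 1.

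The siRNA sequences are shown because a guide strand can also pair, through its seed at bases 2 to 8, with the 3′UTRs of other mRNAs. The study designed 2 siRNAs against LINP1, and the sources used here do not name which was sequenced. Each is given as the target sequence and its guide strand, with the seed, and the site that pairs with it, in capitals:
siLINP1_01 target: ccaactgcgggACTTCAGa
siLINP1_01 guide: tCTGAAGTcccgcagttgg
siLINP1_02 target: cactctccagcCTGCAAGa
siLINP1_02 guide: tCTTGCAGgctggagagtg

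At least 1 of the 2 seed sites was found in the 3′UTR of 10 of 34 integrin and laminin genes with at least 10 reads (29.4%), against 25.5% of 14047 protein-coding genes with at least 10 reads and an annotated 3′UTR. The median 3′UTR was 1327.5 bases long for the 34 genes and 1280 bases for all 14047. Of the 10 genes with a site, 5 were higher and 5 lower in siLINP1 by any amount, and of the 24 without a site 12 were higher and 12 lower. Sites in the 4 genes beyond 1.5-fold that had any are given, for ITGA11 the one for siLINP1_01, with 9 bases on either side and with the site in capitals (GRCh37, strand of the gene):
ITGA4, siLINP1_01, chr2:182400863-182400869: aactggcaaACTTCAGactgaacat
ITGA1, siLINP1_02, chr5:52250564-52250570: aagctatatCTGCAAGacaagtttg
ITGA1, siLINP1_01, chr5:52251140-52251146: tgtgagctgACTTCAGcacaccact
ITGA9, siLINP1_01, chr3:37862881-37862887: ccagagaacACTTCAGggacatttt
ITGA11, siLINP1_01, chr15:68590880-68590886: acctcctggACTTCAGtgatcctcc

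Among these, ITGA4 and ITGA11 were lower in siLINP1 while ITGA1 and ITGA9 were higher. The ITGA4 site and this ITGA11 site each matched 14 of the 19 bases of the siLINP1_01 target, the ITGA9 site 9, and the ITGA1 sites 8 for siLINP1_01 and 9 for siLINP1_02. The best sites of ITGA2 and ITGB8, both within 1.5-fold, matched 12. LAMA1, LAMA5, LAMB2 and LAMB3, also within 1.5-fold and without a site, matched 14 of 19 bases of a target somewhere in their transcripts. ITGB7, also without a site, matched 15 of 19 bases somewhere in its transcript, the most of the 34 genes. It was 2.18-fold lower in siLINP1, with 78 reads in siNC and 31 in siLINP1. Its interval of the log2 fold change, -1.77 to -0.50, reaches inside 1.5-fold. The ITGA1 and ITGA9 sites and this ITGA11 site lie beyond the 3′ end of the gene span in the count table. ITGAM, ITGAL and LAMA4, which were all higher in siLINP1, had no site of either seed. ITGB8 and ITGA11 held 3 sites each, the most of the 34 genes. Those of ITGB8 were all for siLINP1_01, and it had 1388 reads in siNC and 1268 in siLINP1 (log2 fold change 0.08, interval -0.03 to 0.19). A match is a description of the sequence, and the part of the seed in any difference was not tested.

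Integrin and laminin genes were split evenly between higher and lower in siLINP1, and a few single genes differed strongly. Of the 38 genes, 34 had at least 10 reads summed over both libraries. Of these, 17 were higher and 17 lower in siLINP1 after scaling (18 and 16 when scaled by total count), and the median log2 fold change was 0.00071, against -0.02 for all 19840 genes and -0.04 for 14275 protein-coding genes. Beyond 1.5-fold, the fold criterion of the study, 6 of 34 were higher (ITGA1, ITGA2B, ITGA9, ITGAL, ITGAM and LAMA4), beside 14.4% of all genes and 10.9% of protein-coding genes. Another 5 of 34 were lower beyond 1.5-fold (ITGA4, ITGA11, ITGAX, ITGB2 and ITGB7), beside 13.0% of all genes and 10.5% of protein-coding genes. With the whole 95% counting interval beyond 1.5-fold there were 5 higher genes (ITGA1, ITGA9, ITGAL, ITGAM and LAMA4), beside 3.98% of all genes and 4.13% of protein-coding genes. By that criterion 1 gene, ITGA4, was lower, beside 2.06% of all genes and 2.34% of protein-coding genes. ITGAL, in both counts of higher genes, reached 10 reads through siLINP1 alone (0 reads in siNC), so the filter fixed its direction. ITGA2B, with 5 reads in siNC, could pass the filter only with at least as many in siLINP1. Of the 27 genes with at least 100 reads, 3 were higher and 3 lower beyond 1.5-fold, where 8.12% and 6.65% of 11821 protein-coding genes with as many reads were. ITGAM, among the 3 higher genes, reached 100 reads through siLINP1 alone (12 reads in siNC), so that minimum fixed its direction. The intervals cover counting error only. In a culture sequenced as a whole, fewer cells that make a transcript and less of it in each cell cannot be told apart.

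The 38 genes took 0.675% of all counted reads in siNC and 0.714% in siLINP1. Their summed level was 1075 RPKM (reads scaled by gene length and by the total reads of the library) in siNC and 1162 RPKM in siLINP1. Fold changes are taken from counts scaled by size factors, so they run slightly below the ratio of the RPKM values, which are scaled by total count. Levels spanned a wide range, from ITGA3 at 233 and LAMB1 at 157 RPKM in siNC to genes with a handful of reads. The 4 genes with fewer than 10 reads in all were ITGA8 (0 reads in siNC and 1 in siLINP1), ITGAD (5 and 1), ITGB6 (2 and 2) and LAMB4 (4 and 0). At this depth no difference was detectable for them.

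**Figure D1:**
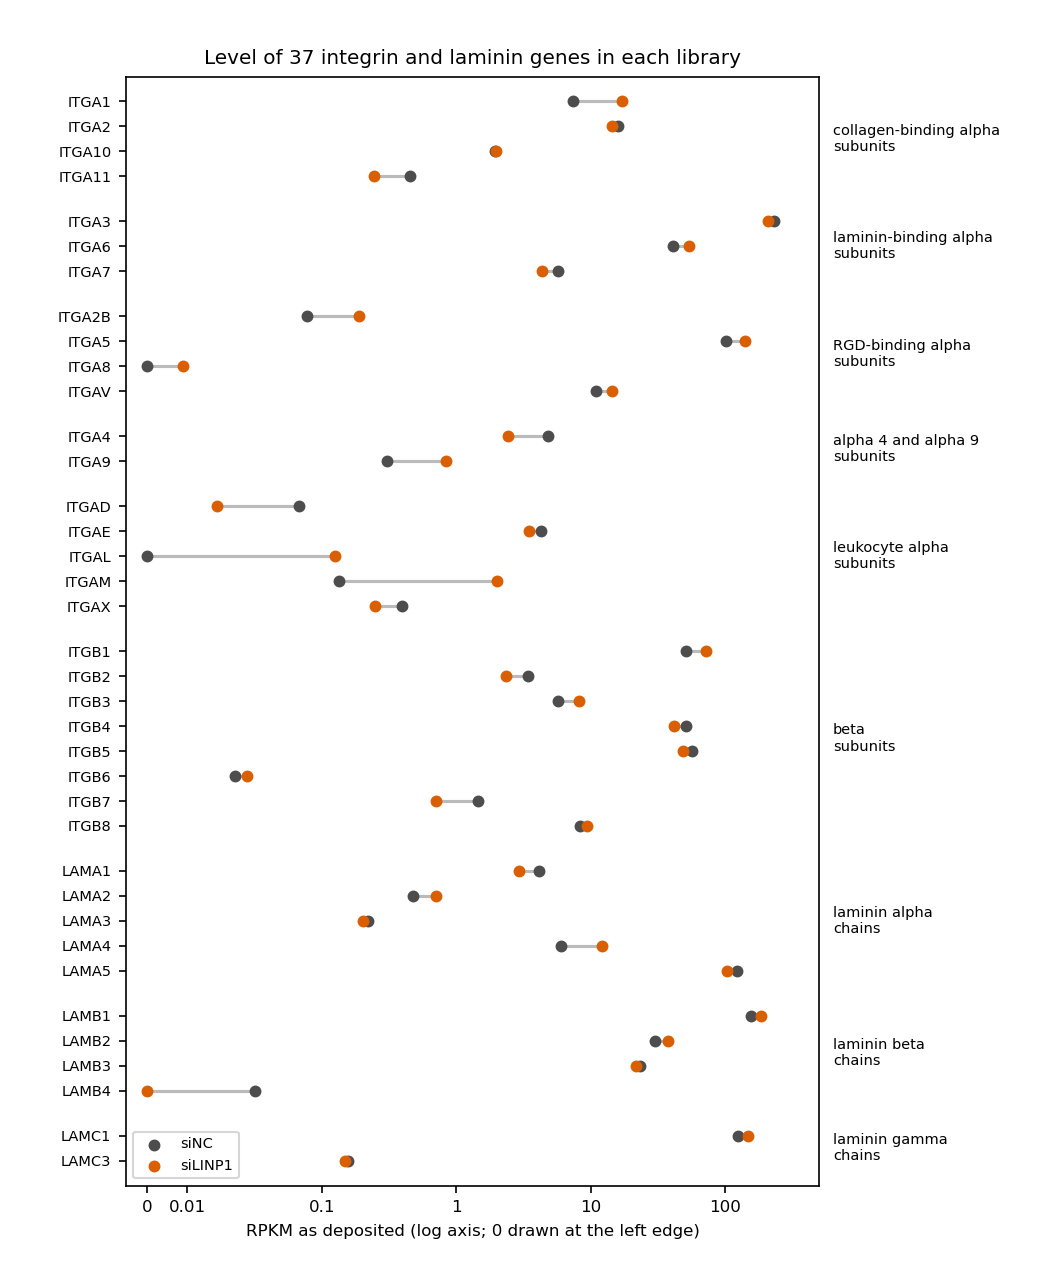
Levels of 37 integrin and laminin genes in RPKM as deposited, on a log axis with 0 at the left edge, with siNC in grey and siLINP1 in orange joined by a line for each gene. ITGA3, LAMB1, LAMC1, LAMA5 and ITGA5 all lie above 100 RPKM in both libraries, while ITGAM goes from 0.134 RPKM in siNC to 2.03 RPKM in siLINP1.

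Among the collagen-binding alpha subunits, ITGA1 was higher in siLINP1 while its neighbour ITGA2 was not. ITGA1 (alpha 1, chr5:52084136-52249485, plus strand) had 664 and 1261 reads in siNC and siLINP1, or 7.35 and 17.1 RPKM, and was 2.20-fold higher (log2 fold change 1.13, interval 1.00 to 1.27). ITGA2 (alpha 2, chr5:52285156-52390609), which starts 35.7 kb past the end of ITGA1, had 2380 and 1755 reads, or 15.98 and 14.42 RPKM (log2 fold change -0.23, interval -0.32 to -0.14). In siNC the level of ITGA1 was 0.46 times that of ITGA2, and in siLINP1 it was 1.19 times. Taken as a ratio within each library, which no scaling can change, ITGA1 was higher against ITGA2 by 1.36 on the log2 scale (interval 1.20 to 1.53). Both alpha subunits pair with ITGB1 and bind collagen. PELO, which codes for a ribosome rescue factor and whose span overlaps the 5′ end of ITGA1 on the same strand, had 1445 and 1678 reads (log2 fold change 0.43), and ITGA1 was higher against PELO by 0.71 (interval 0.54 to 0.88). PELO had 162% as many reads as ITGA1, and where the 2 genes overlap their reads may not be separable. ITGA10 had 194 reads in siNC and 159 in siLINP1 (log2 fold change -0.08, interval -0.39 to 0.23). ITGA11, the collagen receptor subunit of fibroblasts, had 43 and 19 reads, 1.96-fold lower, with an interval of the log2 fold change from -1.83 to -0.16 that reaches inside 1.5-fold.

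The laminin-binding alpha subunits were all within 1.5-fold, and they included the most abundant integrin transcript. ITGA3 (alpha 3) had 22049 reads in siNC and 16174 in siLINP1, or 233 and 209 RPKM (log2 fold change -0.24, interval -0.27 to -0.21). ITGA6 (alpha 6) had 4677 and 5058 reads, or 40.9 and 54.1 RPKM (0.32, interval 0.26 to 0.38). ITGA3 was thus somewhat lower and ITGA6 somewhat higher, each by more than its counting error and by less than 1.5-fold. ITGA7, the laminin receptor subunit of muscle, had 478 and 294 reads (-0.49, interval -0.71 to -0.28). METTL7B overlaps ITGA7 on the opposite strand with 211 and 112 reads, 41.8% as many as ITGA7 itself, and was also lower (log2 fold change -0.70). The strand setting of the counting is not given in the sources used here, so reads of the 2 genes may not be separable. The same limit holds for the other genes below that overlap on opposite strands.

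The RGD-binding alpha subunits, which recognise fibronectin, vitronectin and related proteins, all had a positive log2 fold change where at least 10 reads were present. ITGA5, the fibronectin receptor subunit, had 8138 reads in siNC and 9217 in siLINP1, or 102 and 141 RPKM (0.39, interval 0.35 to 0.43). ITGAV, which pairs with several beta subunits, had 1493 and 1598 reads, or 11.0 and 14.4 RPKM (0.31, interval 0.20 to 0.41). Both stayed within 1.5-fold. ITGA2B, the platelet subunit, had 5 and 10 reads, and its interval from -0.47 to 3.11 includes no difference.

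The alpha 4 and alpha 9 subunits, a related pair that binds VCAM1, fibronectin or tenascin, differed in opposite directions. ITGA4 (chr2:182321619-182403655, plus strand) had 698 reads in siNC and 287 in siLINP1, or 4.84 and 2.43 RPKM, and was 2.10-fold lower (log2 fold change -1.07, interval -1.28 to -0.87). It was the only one of the 34 genes with its whole interval beyond 1.5-fold on the lower side. CERKL, on the opposite strand, overlaps the 3′ end of ITGA4 from position 182401399 and had 117 and 30 reads (log2 fold change -1.75, interval -2.38 to -1.17), 14.9% as many reads as ITGA4. Where the 2 genes overlap, their reads may not be separable. ITGA9 (chr3:37493813-37861281, plus strand) had 23 reads in siNC and 51 in siLINP1, or 0.308 and 0.837 RPKM, 2.56-fold higher (1.36, interval 0.62 to 2.14). An overlapping transcript on the opposite strand of ITGA9 had 4 and 7 reads.

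The largest difference of all was in a leukocyte subunit. ITGAM (alpha M, CD11b, chr16:31271288-31344213, plus strand) had 12 reads in siNC and 148 in siLINP1, or 0.134 and 2.03 RPKM, and was 14.3-fold higher (log2 fold change 3.83, interval 2.99 to 4.82). ITGAX (alpha X, CD11c), 22.2 kb downstream of ITGAM, had 35 and 18 reads (-0.75, interval -1.66 to 0.11), and ITGAD, 10.3 kb further on, had 5 and 1. The ratio of ITGAM to ITGAX differed by 4.58 on the log2 scale (interval 3.40 to 5.76), so the high level was not shared along this cluster of leukocyte integrin genes. ITGAL (alpha L, CD11a, chr16:30483983-30534506) was without a read in siNC (0 reads) and had 10 reads in siLINP1. With a floor of 3 reads for siNC it was 3.85-fold higher, a value set by that floor. The counting interval of its log2 fold change, which does not use the floor, starts at 1.37. ITGAE, the subunit that binds E-cadherin, had 310 and 206 reads (-0.38, interval -0.64 to -0.12). GSG2 overlaps ITGAE on the opposite strand with 254 and 252 reads, 98.1% as many as ITGAE, and reads of the 2 may not be separable.

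The beta partner of ITGAM and ITGAL was not higher with them. ITGB2, which both need to reach the cell surface, had 207 reads in siNC and 116 in siLINP1, 1.54-fold lower (log2 fold change -0.63, interval -0.97 to -0.29, and -0.54 when scaled by total count, within 1.5-fold). The ITGAM level was 0.039 times that of ITGB2 in siNC and 0.866 times in siLINP1, a difference of 4.46 on the log2 scale (interval 3.55 to 5.37). ITGB2-AS1, antisense to ITGB2, had 37 and 33 reads. Of 19 leukocyte markers, 12 had fewer than 10 reads, CD3D, CD3E and MS4A1 were at 0 in both libraries, and the summed level was 8.66 RPKM in siNC and 7.51 RPKM in siLINP1. Most of that sum was CORO1A, at 4.92 and 3.87 RPKM (179 and 115 reads). PTPRC (CD45) had 1 and 4 reads and SPI1 had 4 and 2. The macrophage genes went both ways, with CD163 at 2 and 17 reads, CD14 at 12 and 3, and CSF1R at 31 and 11.

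**Figure D2:**
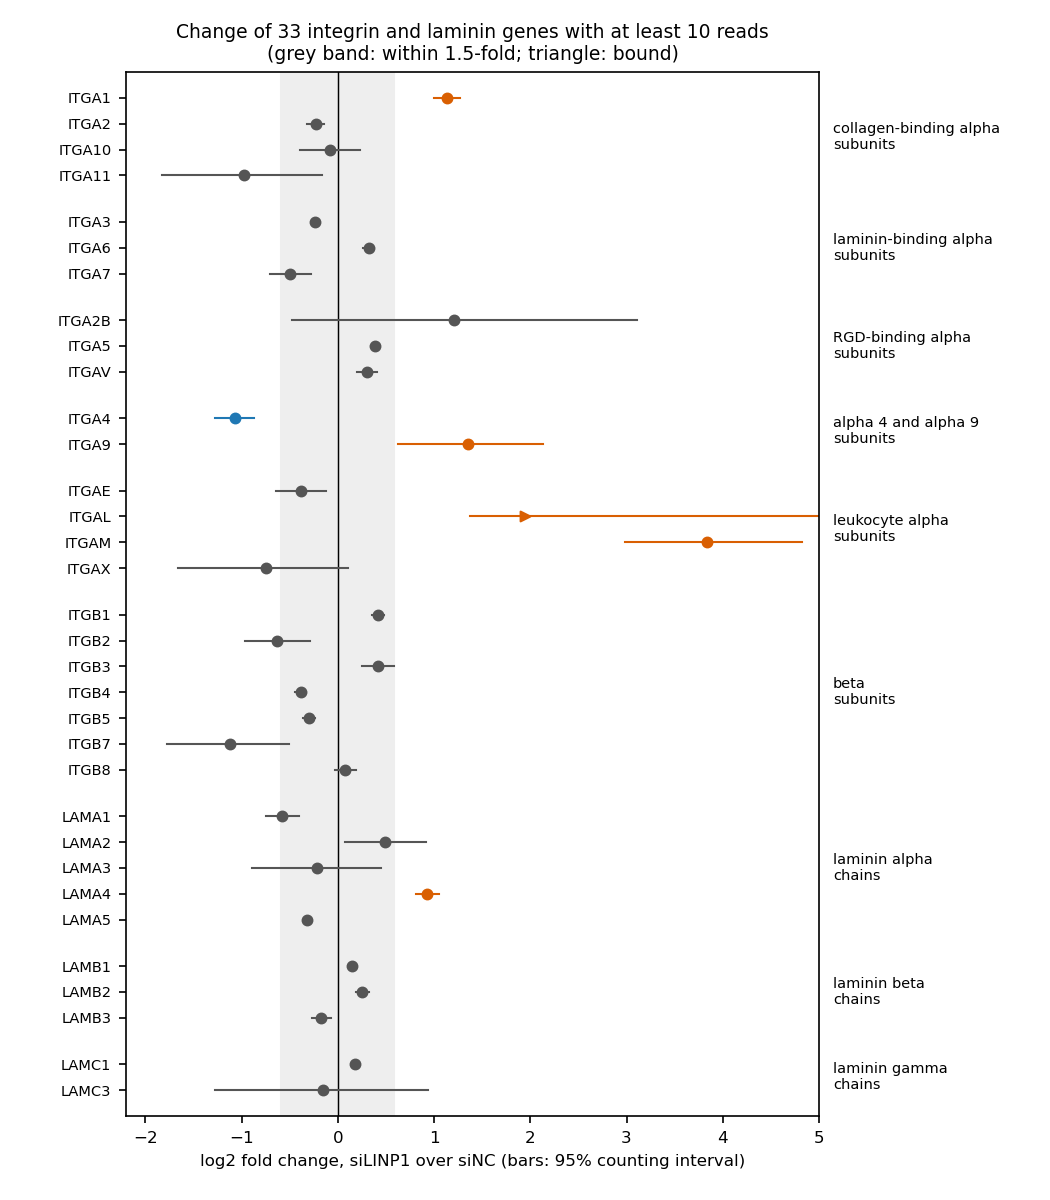
Log2 fold change of siLINP1 over siNC for 33 integrin and laminin genes with at least 10 reads, grouped by role, with bars for the 95% counting interval and a grey band for changes within 1.5-fold. Genes with their whole interval above 1.5-fold are orange (ITGA1, ITGA9, ITGAL, ITGAM and LAMA4) and the gene with its interval below it is blue (ITGA4). The triangle of ITGAL marks a fold that rests on a floor of 3 reads for siNC.

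The other beta subunits included the 3 abundant ones, ITGB1, ITGB4 and ITGB5, all within 1.5-fold. ITGB1, the common partner of most alpha subunits, had 3943 reads in siNC and 4542 in siLINP1, or 51.2 and 72.2 RPKM (log2 fold change 0.41, interval 0.35 to 0.48). ITGB4, the hemidesmosome subunit that pairs only with alpha 6, had 5990 and 3962 reads, or 51.4 and 41.6 RPKM (-0.39, interval -0.45 to -0.33). ITGB5, a partner of alpha V, had 4667 and 3279 reads, or 56.6 and 48.7 RPKM (-0.30, interval -0.36 to -0.24). In siNC these 3 subunits lay close together, and in siLINP1 ITGB1 lay above both others. ITGB3, the vitronectin receptor subunit, had 531 and 614 reads (0.42, interval 0.25 to 0.59), and ITGB8, which with alpha V activates TGF-beta, had 1388 and 1268 reads (0.08, interval -0.03 to 0.19). ITGB7, a partner of alpha 4 and alpha E, had 78 and 31 reads, 2.18-fold lower (-1.12, interval -1.77 to -0.50). Its whole interval does not lie beyond 1.5-fold.

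Among the laminin alpha chains LAMA4 was higher and the dominant LAMA5 somewhat lower. LAMA4 (laminin alpha 4, the chain of endothelial and mesenchymal basement membranes, chr6:112429134-112575917, minus strand) had 854 reads in siNC and 1409 in siLINP1, or 5.99 and 12.1 RPKM. It was 1.91-fold higher (log2 fold change 0.93, interval 0.81 to 1.06). LAMA5, the broad epithelial chain, had 26223 and 18180 reads, the most of any of the 38 genes in both libraries, or 122 and 103 RPKM (-0.32, interval -0.35 to -0.29). The ratio of LAMA4 to LAMA5 was 0.049 in siNC and 0.117 in siLINP1, a difference of 1.25 on the log2 scale (interval 1.13 to 1.38). LAMA1, the embryonic chain, had 746 and 433 reads (-0.58, interval -0.75 to -0.40), just within 1.5-fold at 1.49-fold lower. LAMA2, the muscle chain, had 87 and 106 reads (0.49, interval 0.07 to 0.92). LAMA3 had 47 and 35 reads, or 0.222 and 0.203 RPKM.

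The laminin beta and gamma chains given here were within 1.5-fold. LAMB1 had 17295 reads in siNC and 16530 in siLINP1, or 157 and 184 RPKM (log2 fold change 0.14, interval 0.11 to 0.18). LAMC1 had 18494 and 18059 reads, or 124 and 149 RPKM (0.18, interval 0.15 to 0.20). These chains join LAMA4 or LAMA5 in trimers, and the ratio of LAMB1 to LAMC1 in RPKM was 1.26 in siNC and 1.24 in siLINP1 (log2 difference -0.03, interval -0.07 to 0.01). LAMB2 had 3271 and 3378 reads (0.26, interval 0.19 to 0.33). LAMB3 had 1958 and 1504 reads (-0.17, interval -0.27 to -0.07). LAMC3 had 18 and 14 reads.

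**Figure D3:**
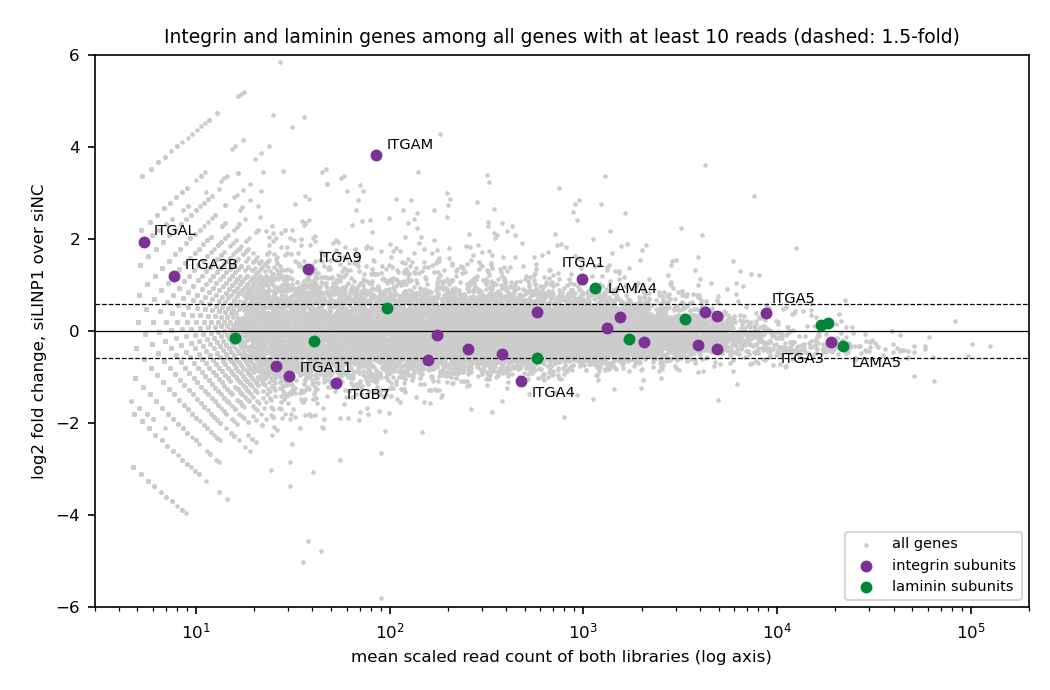
Log2 fold change of siLINP1 over siNC against the mean scaled read count on a log axis, with all 19840 genes in grey, integrin genes in purple, laminin genes in green and dashed lines at 1.5-fold. ITGAM lies near the upper edge of genes with a like number of reads, ITGA1 and LAMA4 lie above the upper line at about 1000 reads, and ITGA3 and LAMA5 lie close to 0 among the most read genes.

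Because receptors and trimers form from several chains, each subunit was also set against its partner within a library. Of the alpha subunits with ITGB1, ITGA5 had a ratio of 1.98 in siNC and 1.95 in siLINP1 by RPKM (log2 difference -0.02, interval -0.10 to 0.05). ITGAV differed by -0.11 (interval -0.22 to 0.01) and ITGA6 by -0.09 (interval -0.18 to -0.01). ITGA3 was 4.54 times the level of ITGB1 in siNC and 2.89 times in siLINP1, a difference of -0.65 (interval -0.72 to -0.58). ITGA2 differed by -0.64, ITGA10 by -0.49, ITGA7 by -0.91, ITGA11 by -1.38 and ITGA4 by -1.49 (interval -1.69 to -1.28) relative to ITGB1. ITGA1 differed by 0.72 (interval 0.57 to 0.87) and ITGA9 by 0.94 (interval 0.23 to 1.66). Against ITGB1, then, ITGA1 and ITGA9 were higher, ITGA5 and ITGAV had intervals that include no difference, and the others were lower.

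The 2 subunits of the hemidesmosome integrin went apart. ITGA6 was 0.795 times the level of ITGB4 in siNC and 1.30 times in siLINP1, a log2 difference of 0.71 (interval 0.63 to 0.79). ITGAV differed by 0.61 against ITGB5 (interval 0.49 to 0.73), by 0.23 against ITGB8 (interval 0.08 to 0.38) and by -0.11 against ITGB3 (interval -0.31 to 0.08). For the trimers, LAMA4 was higher against LAMB1 by 0.79 (interval 0.66 to 0.91) and against LAMC1 by 0.76 (interval 0.63 to 0.88). LAMA5 was lower against LAMB1 (log2 difference -0.46, interval -0.50 to -0.42) and against LAMC1 (-0.49, interval -0.53 to -0.45).

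**Figure D4:**
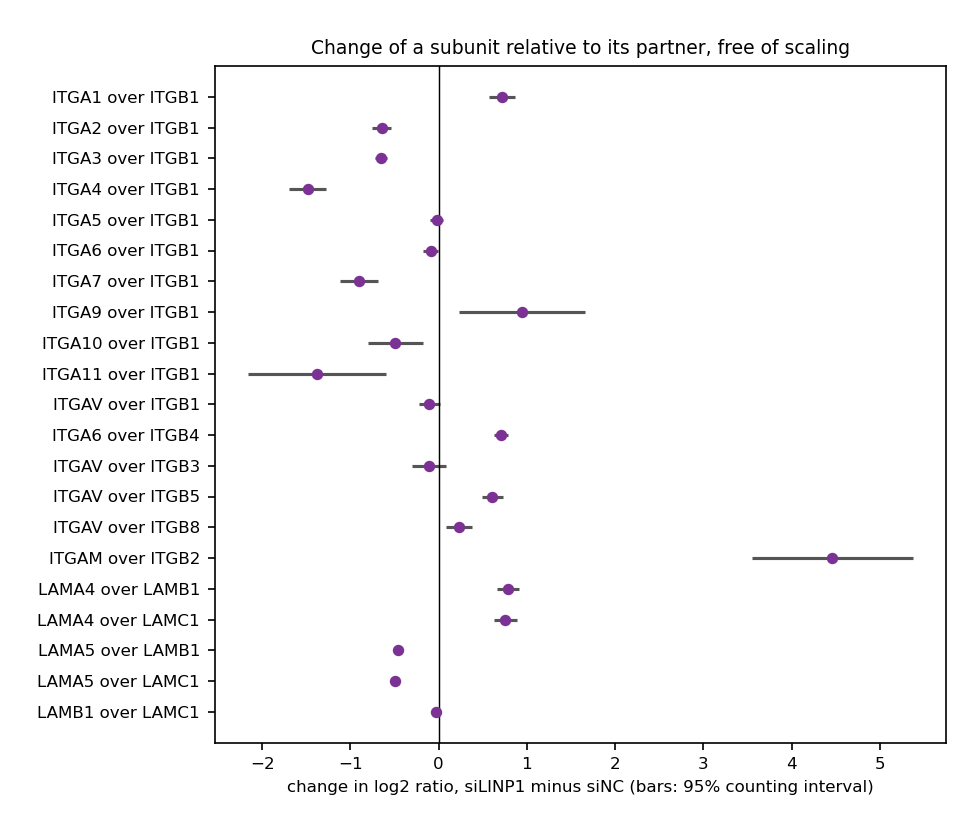
Change in the log2 ratio of a subunit to its partner, siLINP1 minus siNC, for 21 pairs, with bars for the 95% counting interval, a measure that does not depend on how the libraries are scaled. ITGAM over ITGB2 stands farthest to the right at 4.46, ITGA6 over ITGB4 is at 0.71, and ITGA5 over ITGB1 and LAMB1 over LAMC1 lie close to 0.

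ITGA3 made up 54.4% ± 0.49 of the summed RPKM of the 18 integrin alpha genes in siNC and 44.8% ± 0.52 in siLINP1, where ± reaches from the share to either end of its 95% counting interval. ITGA5 made up 23.8% ± 0.44 and 30.3% ± 0.50, ITGA6 9.56% ± 0.26 and 11.6% ± 0.31, and ITGA1 1.72% ± 0.13 and 3.67% ± 0.20. Of the 8 beta genes, ITGB1 made up 28.7% ± 0.74 in siNC and 39.4% ± 0.86 in siLINP1, ITGB4 28.8% ± 0.65 and 22.7% ± 0.65, and ITGB5 31.7% ± 0.74 and 26.6% ± 0.77. ITGAM was 0.031% of the alpha sum in siNC and 0.435% in siLINP1, so its large fold was a small part of the total. LAMA5 made up 91.9% ± 0.37 and 86.6% ± 0.54 of the laminin alpha sum, and LAMA4 4.52% ± 0.29 and 10.1% ± 0.49. LAMB1 was 74.8% and 75.5% of the beta sum and LAMC1 98.8% of the gamma sum in both libraries.

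**Figure D5:**
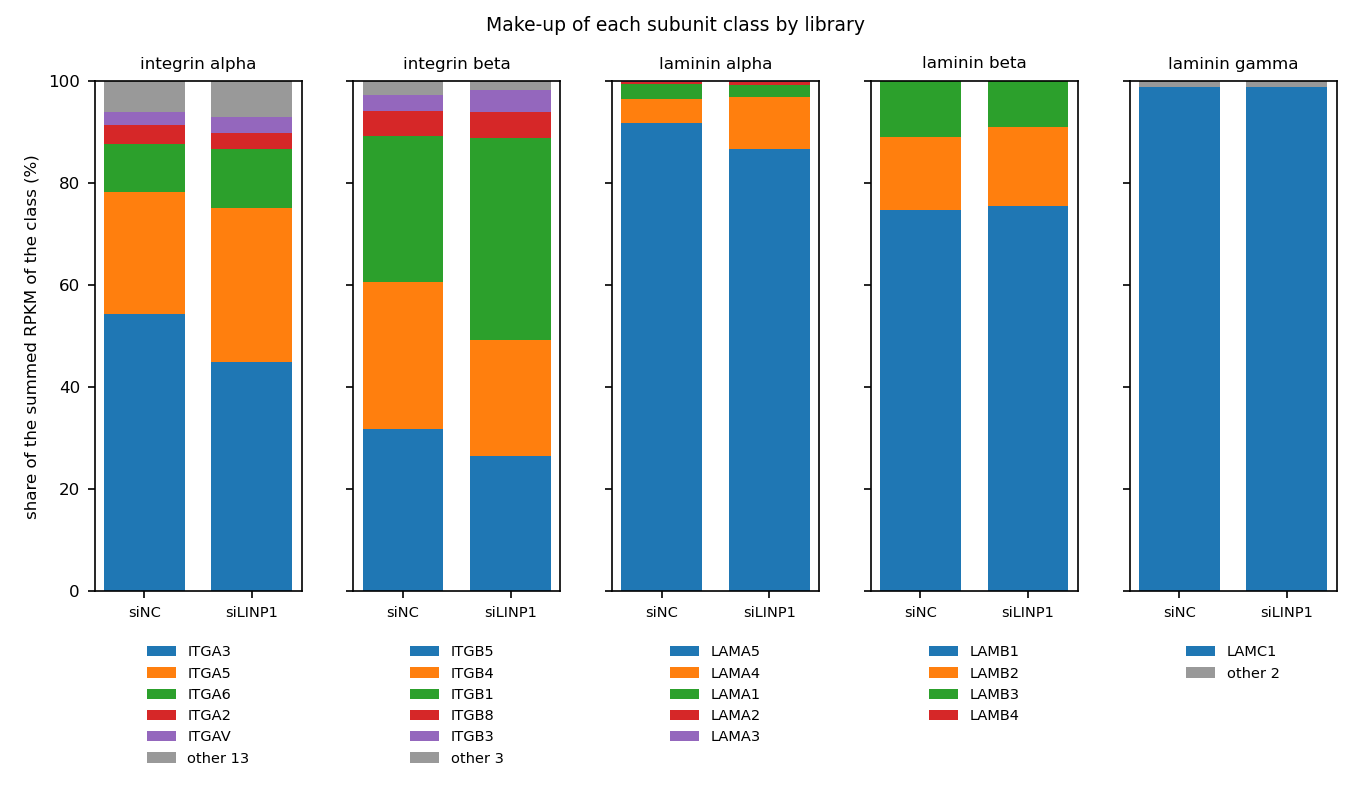
Share of the summed RPKM of each subunit class held by its highest genes in siNC, with the rest in grey, as stacked bars from 0 to 100% for siNC and siLINP1. ITGB1 takes 28.7% of the beta sum in siNC and 39.4% in siLINP1, ITGA3 54.4% and 44.8% of the alpha sum, and the laminin beta and gamma bars are nearly alike.

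Promoter sequences are shown for the 4 genes with at least 100 reads and the whole interval beyond 1.5-fold, since these carry the differences above. ITGAM reached 100 reads through siLINP1 alone. RefSeq windows of 250 bases before to 50 bases after a gene start (GRCh38.p14) matched 26 of the 38 genes by symbol. In the sequences that follow, given 5′ to 3′ on the strand of the gene, capitals mark a GC box (GGGCGG) or the NF-kB consensus, on either strand:
ITGA1, chr5:52787666-52787965, plus strand: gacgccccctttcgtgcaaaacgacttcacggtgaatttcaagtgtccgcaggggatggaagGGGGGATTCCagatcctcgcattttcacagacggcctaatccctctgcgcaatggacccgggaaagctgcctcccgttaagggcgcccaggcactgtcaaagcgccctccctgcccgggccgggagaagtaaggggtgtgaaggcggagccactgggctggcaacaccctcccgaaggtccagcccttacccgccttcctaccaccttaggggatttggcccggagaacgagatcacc
ITGA4, chr2:181457136-181457435, plus strand: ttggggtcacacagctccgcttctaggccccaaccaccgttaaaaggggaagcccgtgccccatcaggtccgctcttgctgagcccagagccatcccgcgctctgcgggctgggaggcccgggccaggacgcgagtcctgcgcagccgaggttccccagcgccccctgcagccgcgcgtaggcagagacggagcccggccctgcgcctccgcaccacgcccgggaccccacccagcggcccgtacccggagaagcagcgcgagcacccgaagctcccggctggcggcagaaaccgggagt
ITGAM, chr16:31259725-31260024, plus strand: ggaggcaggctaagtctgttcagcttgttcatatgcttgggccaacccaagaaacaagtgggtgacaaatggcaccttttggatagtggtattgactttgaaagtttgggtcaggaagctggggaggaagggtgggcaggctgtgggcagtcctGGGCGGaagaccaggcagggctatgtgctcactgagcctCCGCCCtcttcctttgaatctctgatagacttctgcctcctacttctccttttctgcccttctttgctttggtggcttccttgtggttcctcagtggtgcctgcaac
LAMA4, chr6:112254518-112254817, minus strand: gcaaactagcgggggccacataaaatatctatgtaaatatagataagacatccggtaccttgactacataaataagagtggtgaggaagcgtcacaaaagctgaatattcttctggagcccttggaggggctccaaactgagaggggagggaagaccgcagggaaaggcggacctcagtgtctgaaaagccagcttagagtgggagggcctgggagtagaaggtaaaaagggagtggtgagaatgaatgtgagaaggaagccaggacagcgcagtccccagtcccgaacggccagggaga

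The 4 windows differ in composition. The ITGA4 window has a GC content of 72.3% and 31 CG dinucleotides, and that of ITGA1 61.7% and 19. The ITGAM window has 53.3% and 2, and that of LAMA4 51.3% and 8. Over all 35116 windows the median GC content was 58.7% and the median number of CG dinucleotides 14. The ITGA1 window holds a match to the NF-kB consensus, which 5.91% of all windows hold, and so do windows of ITGA5, ITGA10, ITGA11 and LAMB3. PELO starts shortly before ITGA1 on the same strand (chr5:52083774 against 52084136, GRCh37). The ITGA1 window may therefore lie at the start of PELO and not at the counted start of ITGA1. Its composition and its NF-kB match may then be those of PELO. Positions were not carried from one build to the other. The AP-1 motif TGACTCA was found in windows of ITGA5, LAMA3 and LAMB3, and in 4.95% of all windows. The GC box was found for 14 of the 26 genes, ITGAM included, and in 45.0% of all windows. A gene is counted if any of its windows holds the motif, and some genes have several. Counts of genes and shares of windows are therefore not directly comparable. GC-rich motifs can overlap one another, and a match says nothing of binding in these cells.

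The genes around the integrins and laminins in the pathway were taken from lists chosen by function, with reads given for siNC and then siLINP1. Of 23 integrin adaptors, which link the beta tail to actin, 0 were higher and 2 lower beyond 1.5-fold. Of all genes, 14.4% were higher and 13.0% lower by as much. The median log2 fold change of the adaptors was -0.16. By any amount 17 of the 23 were lower, where 10353 of all 19840 genes were. TNS1 (tensin 1) had 261 and 77 reads (-1.55, interval -1.94 to -1.18), and LIMS2, a partner of integrin-linked kinase, had 48 and 16 (-1.38, interval -2.29 to -0.53). The core adaptors were within 1.5-fold, among them TLN1 (talin 1) at -0.25, FLNA (filamin A) at -0.31, VCL (vinculin) at -0.13, ILK at 0.30 and PTK2 (focal adhesion kinase) at 0.18 on the log2 scale.

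Of 17 ligands other than laminin and collagen, 15 had at least 10 reads. Their median log2 fold change was 0.12. Beyond 1.5-fold, 2 were higher and 1 lower, beside 14.4% and 13.0% of all genes. Scaled by total count, 5 were higher, beside 16.7% of all genes. CYR61, a matricellular ligand of several integrins, had 4257 and 5595 reads (0.60, interval 0.55 to 0.66). SPP1 (osteopontin) had 623 and 834 reads (0.63, interval 0.48 to 0.78), and CDH1 (E-cadherin), the ligand of ITGAE, had 14 and 3. The intervals of all 3 reach inside 1.5-fold, and CDH1 reached 10 reads through siNC alone. Of the ligands of the subunits that differed most, ICAM1, bound by ITGAL and ITGAM, had 2650 and 3176 reads (0.47, interval 0.40 to 0.55), and VCAM1, bound by ITGA4, had 0 reads in both libraries. FN1 (fibronectin) had 1151 and 753 reads (-0.40, interval -0.54 to -0.27).

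The 12 basement membrane partners of laminin had a median log2 fold change of -0.02. Beyond 1.5-fold, 1 was higher and 1 lower, beside 14.4% and 13.0% of all genes. COL4A1 (collagen IV alpha 1) had 3230 and 5740 reads (1.04, interval 0.98 to 1.10), while COL4A2, its partner chain and neighbour in the genome, had 14723 and 13847 (0.12, interval 0.09 to 0.15). BCAM, a receptor for laminin alpha 5, had 1148 and 543 reads (-0.87, interval -1.02 to -0.72). Of the 4 hemidesmosome genes besides ITGA6 and ITGB4, COL17A1 had 162 and 400 reads (1.51, interval 1.25 to 1.79) and was the only one beyond 1.5-fold. PLEC (plectin), DST and CD151 had log2 fold changes of -0.08, -0.21 and -0.20.

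The label of a squamous carcinoma line was set against marker genes. Of 16 keratinocyte markers 15 had at least 10 reads, with a summed level of 72.6 RPKM in siNC and 67.0 RPKM in siLINP1, but the basal keratinocyte genes were low, with KRT5 at 32 and 24 reads and TP63 at 6 and 8. KRT14 had 243 and 87 reads (log2 fold change -1.27, interval -1.64 to -0.91). The summed level of 14 mesenchymal markers was 2073 RPKM in siNC and 1701 RPKM in siLINP1. Most of it was VIM at 1519 and 1278 RPKM, with SPARC at 505 and 382 RPKM. Others were near the floor, with COL1A2 at 4 and 8 reads, COL3A1 at 8 and 6 and THY1 at 1 and 0. Of the 13 with at least 10 reads, 1 had its whole interval beyond 1.5-fold on the higher side (ZEB2). On the lower side were 4 (COL1A1, DCN, LUM and PDGFRB), beside 3.98% higher and 2.06% lower of all genes. DCN, with 29 and 2 reads, reached 10 reads through siNC alone, so the filter fixed its direction. Of 8 endothelial markers 4 had at least 10 reads, and their sum was 2.70 and 2.40 RPKM. The part of these markers in the differences between integrin and laminin genes was not tested.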

How the data were processed

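RNA-Seq of HSC-1 cells was analysed from the table of genes that the authors deposited, with 1 library each of siNC and siLINP1, matched to the labels by their library names. Per the study's methods, reads of an Illumina HiSeq instrument were aligned to GRCh37/hg19 with Tophat2 and counted with HTSeq. The submitters' processing notes also name HISAT2, HISAT and Bowtie2. Versions, gene annotation and strand setting are not given in the sources used here. The authors deposited raw read counts per gene, and the deposited RPKM values are counts per gene length and total count. The 12 other columns of per-sample values were not used, and comparison columns hold the authors' fold changes and p-values.

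Scaling of the counts used size factors by median of ratios over the whole table (1.08 for siNC, 0.930 for siLINP1). Genes with fewer than 10 reads in all were left out, which kept 19840 genes. The log2 fold change used no pseudocount, and its 95% Clopper-Pearson interval of the split of a gene's reads covers counting error only. A count of 0 was set to a floor of 3 reads. Ratios of 2 genes have a Wald interval (z of 1.96). With 1 library per condition, no test was made. The genes were named by role, and of the pathway lists the genes beyond 1.5-fold with most reads. The pairs of ITGA1 with ITGA2 and PELO, ITGAM with ITGAX and LAMA4 with LAMA5, the neighbouring genes and the other named genes were chosen after their values were seen. The genes and lists were chosen with earlier results of these data known. Seed sites were sought in the 3′UTR of 1 canonical transcript per gene (GENCODE, GRCh37), and promoters came from RefSeq (GRCh38.p14). Some results on single genes and on 3 pairs are not reported here. The calculation was tested on simulated counts. R 4.3.3 with edgeR 4.0.16 gave the TMM factors, and all else was run in Python 3.11.15 with pandas 2.3.3, numpy 2.4.6, scipy 1.17.1 and matplotlib 3.10.9.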

Additional observations from a re-analysis of the deposited data

How the results depend on the processing

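Scaling by total count (CPM), TMM factors, size factors from protein-coding genes, pseudocounts of 1 and 5 and minimums of 1 and 100 reads were tried. With a minimum of 100 reads, which leaves 27 integrin and laminin genes, 3 were higher and 3 lower beyond 1.5-fold and 3 had the whole interval above it. ITGAM, in both counts of higher genes, reached that minimum through siLINP1 alone. With a minimum of 1 read the median log2 fold change was -0.12 over 36 genes, since ITGA8 and ITGB6, at or under 3 reads in both libraries, have no fold. Under CPM the median of all genes was 0.06, and the count of higher integrin ligands was 5. Also under CPM, ITGB2 came within 1.5-fold at -0.54 and the log2 fold change of ITGA10 was 0.0046, the only change of sign among the 34 genes and LINP1 under the scalings and pseudocounts. Ratios of 2 genes do not depend on scaling. Interval counts were not run with pseudocounts, which the interval does not use. No paired analysis was possible because each group has 1 library, and none could be left out.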
